A study of Bubalus bubalis with 12 samples.

Results

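The genes described here are the cytochrome P450 enzymes and the other enzymes of detoxification in the corpus luteum (CL) of buffalo cows: flavin monooxygenases (FMO), epoxide hydrolases (EPHX), alcohol and aldehyde dehydrogenases (ADH, ALDH), aldo-keto and carbonyl reductases (AKR, CBR), carboxylesterases (CES), sulfotransferases (SULT) and glucuronosyltransferases (UGT). They were chosen by symbol from the platform annotation, which gave 66 genes of the 9155 genes with at least 1 probe set of a single symbol. CYP11A1 and AKR1B1, the cholesterol side chain enzyme and a prostaglandin F synthase, were not counted among them. A gene was represented by its probe set with the highest mean over all arrays, and 20 of the 66 genes had several probe sets.

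Whole CL was collected from buffalo cows (Bubalus bubalis) with normal cycles on day 11 of the estrous cycle. Control CL (0 h, 4 animals) received no treatment. In treated animals CL regression was induced with cloprostenol (500 µg, intramuscular), which acts like prostaglandin F2α, and CL was collected 3 h (2 animals), 6 h (3 animals) and 18 h (3 animals) later. The 12 arrays, 1 per animal by the labels, gave robust multichip average (RMA) values on the log2 scale, so a difference of 1 is a 2-fold change. Array medians lay between 7.09 and 7.17. The probes were designed on cattle sequence, hence a level of one gene is not set against that of another as an amount of transcript, and bright and dim refer to probe set signal alone.

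Enzymes of this kind work in 2 steps. P450 enzymes and FMO put an oxygen onto steroids, fatty acids, drugs and other lipophilic molecules, and hydrolases, dehydrogenases and reductases act on the epoxides, alcohols, aldehydes and ketones that result. SULT and UGT enzymes then attach a sulfate or a sugar, which makes the product soluble. The liver is best known for these reactions, while in the ovary some P450 enzymes build steroid hormones and ALDH1A1 makes retinoic acid from retinaldehyde.

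Markers of luteal cells were read beside the tissue label. All 8 listed markers of luteal steroidogenic cells were measured, with control levels of 14.80 ± 0.09 for STAR, 14.28 ± 0.10 for CYP11A1 and 14.86 ± 0.07 for HSD3B1 (log2, mean ± SD, n = 4). Control replicates 1 and 4 were more alike than any other pair of a group: 6 probe sets differed by more than 2-fold between them, against 220 to 1306 in the other pairs, and 0 of the 66 genes did. The labels give them as separate animals, but whether both arrays carry 1 RNA was not tested, and in that case n at 0 h would be 3 and the errors against 0 h too small. Counts are therefore also given with both averaged into 1 sample. Control replicate 3 stood apart from the other controls, with 575 to 802 probe sets over 2-fold away and 4 to 7 of the 66 genes. Its mean over the macrophage markers was 9.16, against 7.78 to 8.07 in the other controls. The arrays at 3 h differed most (1306 probe sets, 5 of the 66 genes).

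Most of the genes called against 0 h were lower, and these calls came at 6 h and 18 h post cloprostenol. At 6 h, 10 genes were down regulated and 0 up regulated, while 7.66% of all genes were called lower and 6.55% higher. The 10 genes were CYP17A1, CYP19A1, CYP27A1, FMO1, EPHX2, ADH5, ADH6, ALDH3A2, ALDH7A1 and AKR1A1. At 18 h, 13 genes were down regulated and 2 up regulated, while 8.35% of all genes were called lower and 7.55% higher. Those down regulated were CYP19A1, CYP51A1, CYP2D14, FMO1, FMO2, EPHX1, ADH5, ADH6, ALDH1A1, ALDH3A2, ALDH7A1, ALDH9A1 and CBR4, and those up regulated were CBR3 and CYP2S1. In all, 19 of the 66 genes were called in some comparison and 47 in none. Of the 19, 6 were called at both times (ADH5, ADH6, ALDH3A2, ALDH7A1, CYP19A1 and FMO1). The shares of all genes called in some comparison, or at both times, were not counted.

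Calls are at an adjusted p under 0.05 in limma, adjusted over 24016 probe sets. As a share of the 66 genes, 15.2% were called at 6 h in either direction and 22.7% at 18 h, against 14.2% and 15.9% of all genes. The median difference of the 66 genes was -0.17 at 6 h and -0.12 at 18 h (log2), against -0.05 and -0.02 over all genes. A value below 0 was found for 51 genes at 6 h (77.3%, against 58.5% of all genes) and for 43 at 18 h (65.2%, against 53.9%). All treated arrays lay below all controls for 22 genes at 6 h (33.3%, against 17.8% of all genes) and for 19 at 18 h (28.8%, against 16.9%).

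These counts rest in part on single control arrays. With control replicates 1 and 4 averaged, 4 genes were called at 6 h (ADH6, ALDH7A1, CYP19A1 and FMO1) and 10 at 18 h. Without control replicate 3 the counts were 15 and 18. At 6 h, 4 genes remained called if control replicate 1, control replicate 4 or 6 h replicate 2 was left out, and 3 if 6 h replicate 1 was. At 18 h the count was 9 without 18 h replicate 1. The shares of all genes called in these fits, and in the other alternative fits below, were not counted.

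**Figure D1:**
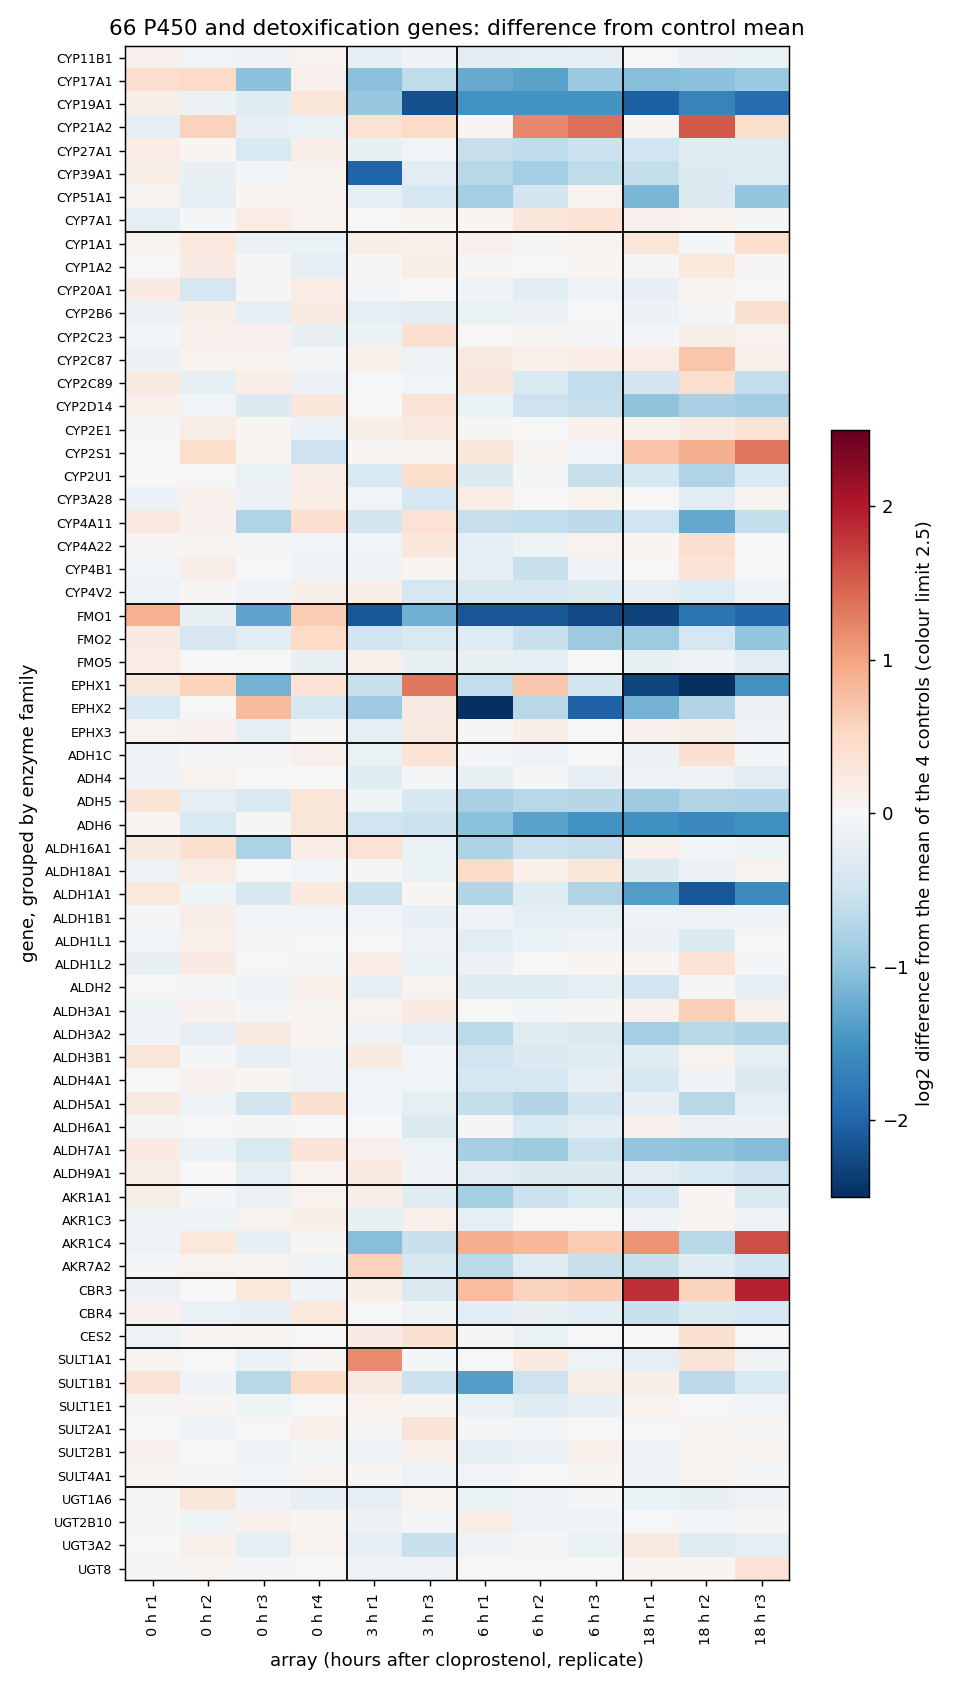
Log2 difference of each of the 66 genes (rows, by enzyme family) on each of the 12 arrays (columns, by hours and replicate) from the mean of the 4 controls, blue for lower and red for higher, with colours ending at 2.5. FMO1, CYP19A1 and ADH6 are blue on every treated array, EPHX1 on the 3 arrays at 18 h, and the SULT and UGT rows are mostly pale.

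**Figure D2:**
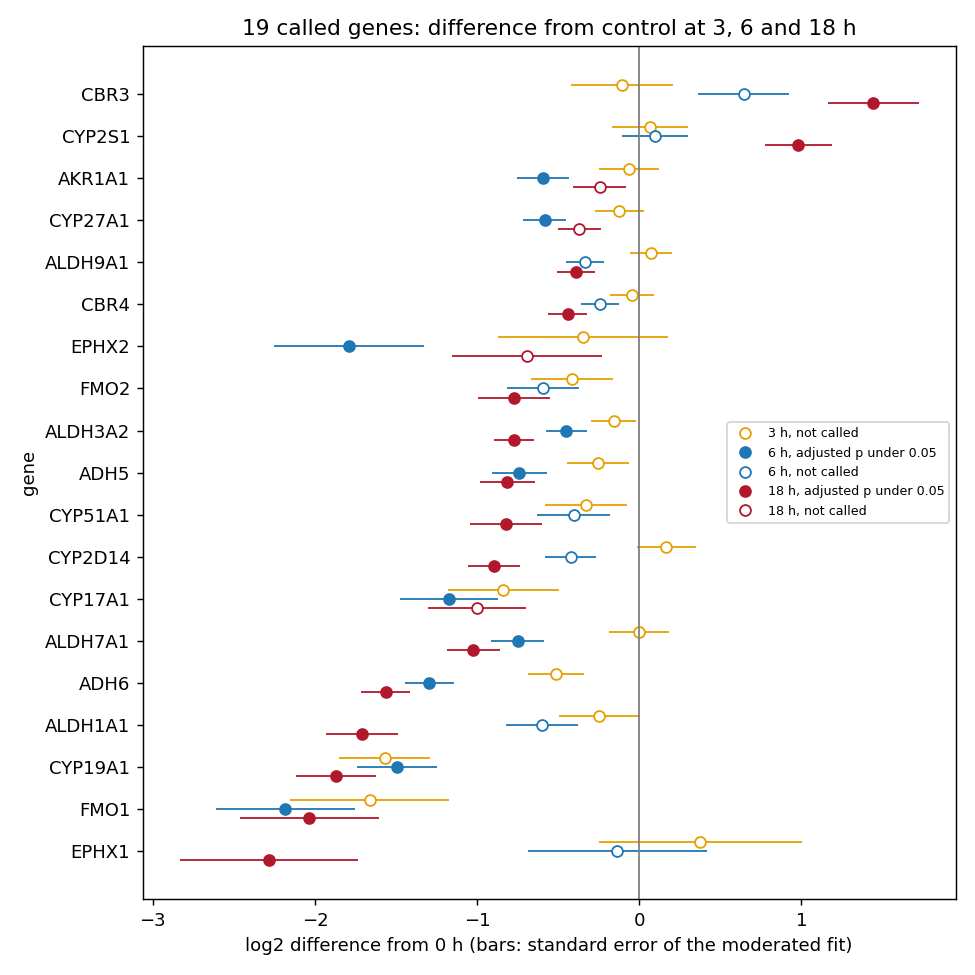
Log2 difference from 0 h (horizontal axis, bars: standard error of the moderated fit) for the 19 called genes at 3, 6 and 18 h, with filled points for an adjusted p under 0.05. The values at 18 h run from -2.28 for EPHX1 to 1.44 for CBR3.

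Cell type markers moved over the same hours. In whole tissue, fewer cells of a type and less RNA per cell cannot be told apart. The mean over the 8 luteal markers was 12.64 to 13.14 on control arrays, 12.66 to 12.88 at 3 h, 12.16 to 12.54 at 6 h and 11.69 to 12.25 at 18 h. The treated arrays at 6 h and 18 h thus lay below all controls. Of these 8 genes 2 fell at 6 h and 5 at 18 h, with medians of -0.47 and -1.10. Of all genes, 7.66% and 8.35% were called lower.

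Some markers of other cells rose. The mean over 7 smooth muscle and pericyte markers was 9.09 to 10.02 at 0 h, 10.09 to 10.34 at 6 h and 10.30 to 10.62 at 18 h, and 3 of 7 were called higher at each time. The 7 macrophage markers had a mean of 7.78 to 9.16 at 0 h, 8.46 to 8.66 at 6 h and 8.84 to 9.45 at 18 h, and 1 and 3 of them were called higher. At 18 h, 3 of 7 fibroblast markers were higher. Of 9 endothelial markers, 3 rose and 1 fell at 6 h, and 4 rose and 1 fell at 18 h. None of 7 lymphocyte markers was called by limma at either time. Of all genes, 6.55% were called higher and 7.66% lower at 6 h, and 7.55% and 8.35% at 18 h. The part of these shifts in the enzyme results was not tested.

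**Figure D3:**
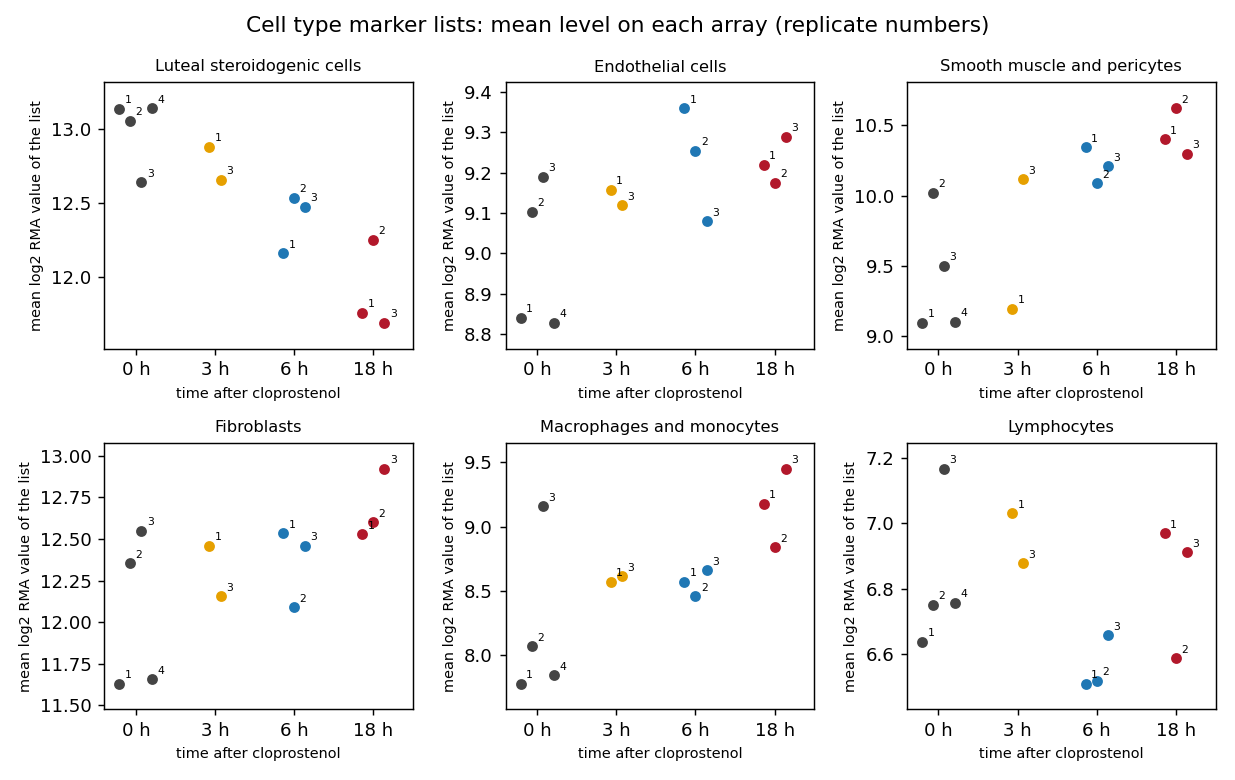
Mean log2 RMA value over each cell type marker list (vertical axes, each with its own range that does not start at 0) on each array by time, numbered by replicate. The luteal list lies between 12.64 and 13.14 at 0 h and between 11.69 and 12.25 at 18 h, and control replicate 3 lies apart from the other controls in the macrophage panel, at 9.16.

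Among the 8 P450 enzymes of steroids and sterols, 3 fell at 6 h and 2 at 18 h, with medians of -0.49 and -0.39. That was 37.5% and 25%, against 7.66% and 8.35% of all genes called lower. CYP19A1, aromatase, which turns androgens into estrogens, read 8.51, 8.20, 8.06 and 8.66 on the control arrays (replicates 1 to 4), 7.41 and 6.16 at 3 h (replicates 1 and 3), 6.85, 6.87 and 6.87 at 6 h and 6.31, 6.69 and 6.46 at 18 h. Every treated array was below every control, the 3 h arrays included. Down regulation was 2.82-fold at 6 h (log2 -1.49 ± 0.25 SE, adjusted p = 0.00483) and 3.66-fold at 18 h (log2 -1.87 ± 0.25, adjusted p = 0.00100). At 3 h the difference was as large (log2 -1.57 ± 0.28) but was not called (adjusted p = 0.113). Without 3 h replicate 1, which left 1 array at 3 h, it was -2.20.

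Of the 4 probe sets of CYP19A1, this brightest one was the only one called. The other 3 differed from control by -0.19 to 0.22 at 3 h, by -0.33 to -0.05 at 6 h and by -0.38 to -0.01 at 18 h (log2). As the mean of its probe sets, CYP19A1 was lower by a smaller amount, with log2 values of -0.49 at 6 h (adjusted p = 0.00817) and -0.59 at 18 h (adjusted p = 0.00278).

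CYP17A1, the hydroxylase and lyase that turns progestogens into androgens, read 7.91, 7.99, 6.47 and 7.62 on control arrays, 6.45 and 6.87 at 3 h, 6.24, 6.16 and 6.58 at 6 h and 6.44, 6.47 and 6.58 at 18 h. Control replicate 3 was as low as the treated arrays, so the groups overlapped at each time. The fall of 2.26-fold at 6 h was called (log2 -1.17 ± 0.30, adjusted p = 0.0298), and the value at 18 h missed the threshold (log2 -1.002 ± 0.30, adjusted p = 0.0518). Without control replicate 3 both were called (log2 -1.52, adjusted p = 0.000424 and log2 -1.34, adjusted p = 0.000420). The 6 h call was lost without control replicate 1, 2 or 4 or without 6 h replicate 1 or 2 (adjusted p = 0.0726 to 0.111), with control replicates 1 and 4 averaged (adjusted p = 0.0810) and with only the 0 h and 6 h arrays fitted.

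CYP27A1, a mitochondrial hydroxylase that makes oxysterols from cholesterol, read 10.97, 10.82, 10.39 and 10.94 on control arrays, 10.61 and 10.71 at 3 h, 10.21, 10.15 and 10.24 at 6 h and 10.28, 10.49 and 10.47 at 18 h. Only the 6 h arrays lay below all controls. It was down regulated 1.497-fold at 6 h (log2 -0.58 ± 0.13, adjusted p = 0.0184), and at 18 h the difference was -0.37 ± 0.13 (adjusted p = 0.0954). The 6 h call was lost without control replicate 1 or 4 or 6 h replicate 1 or 2 (adjusted p = 0.0570 to 0.0739) and with replicates 1 and 4 averaged (adjusted p = 0.0562). Without control replicate 3 the 18 h value was called too (log2 -0.50, adjusted p = 0.00592).

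CYP51A1, the demethylase of lanosterol in cholesterol synthesis, read 12.85, 12.56, 12.83 and 12.88 on control arrays, 12.55 and 12.36 at 3 h, 11.94, 12.33 and 12.86 at 6 h and 11.63, 12.44 and 11.81 at 18 h. The 6 h arrays were spread across and below the control range, and the 18 h arrays lay below it. It fell 1.77-fold at 18 h (log2 -0.82 ± 0.22, adjusted p = 0.0340). The call was lost without control replicate 1, 3 or 4 or 18 h replicate 1 or 3 (adjusted p = 0.0512 to 0.149) and with replicates 1 and 4 averaged (adjusted p = 0.0863).

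CYP21A2, which makes the precursors of corticosteroids from progestogens, showed wide spread and no call. It read 6.73, 7.53, 6.75 and 6.79 on control arrays, 7.31 and 7.42 at 3 h, 7.002, 8.15 and 8.33 at 6 h and 6.99, 8.48 and 7.40 at 18 h. The highest arrays were 6 h replicates 2 and 3 and 18 h replicate 2, and all groups overlapped with control (log2 0.88 ± 0.38 at 6 h, adjusted p = 0.171, and log2 0.67 ± 0.38 at 18 h, adjusted p = 0.300).

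CYP39A1, an oxysterol hydroxylase, was not called in any comparison and is shown for its low value on 1 array. It read 7.45 to 7.79 on control arrays, 5.64 and 7.35 at 3 h, 6.79 to 7.005 at 6 h and 7.06 to 7.34 at 18 h. All treated arrays were below the controls, with 3 h replicate 1 far below the rest (log2 -1.15 ± 0.34 at 3 h, adjusted p = 0.303). Leaving out either 3 h array, it was called at 6 h (log2 -0.73, adjusted p = 0.00245) and at 18 h (log2 -0.41, adjusted p = 0.0291).

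The probe sets of CYP11B1, the last enzyme of cortisol synthesis, disagreed. The one used here, the brighter, differed by -0.23 ± 0.09 at 6 h (adjusted p = 0.123) and by -0.10 ± 0.09 at 18 h (adjusted p = 0.528). The dimmer one was called lower at both times, by -0.79 (adjusted p = 0.0164) and -0.90 (adjusted p = 0.00687). CYP7A1, the rate-limiting enzyme of bile acid synthesis in liver, was among the dimmest genes of the array (mean 3.75) and was not called.

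**Figure D4:**
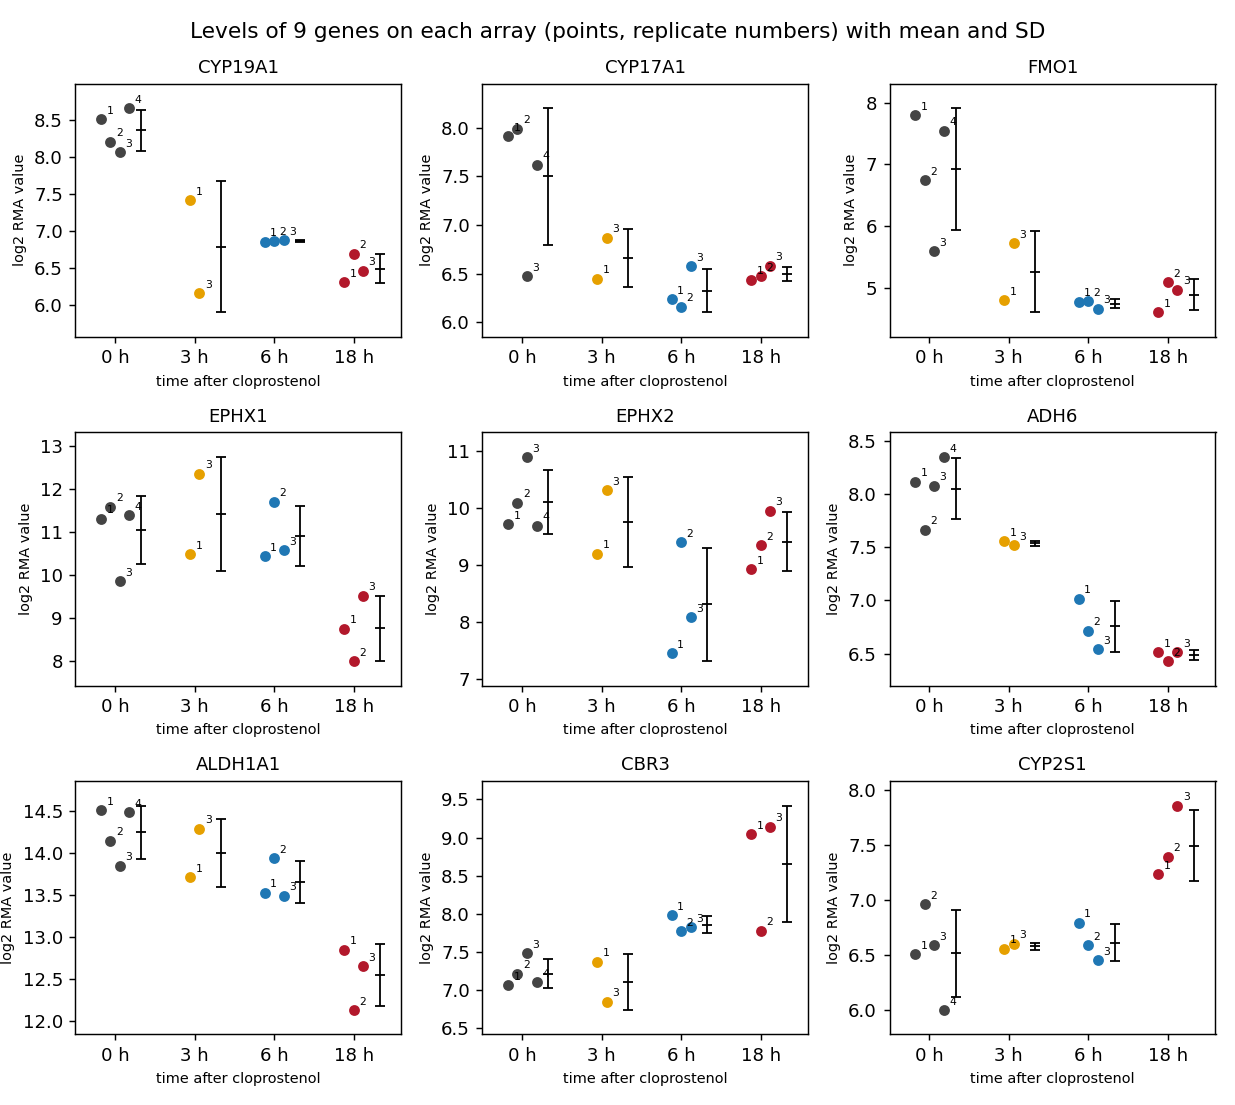
Log2 RMA value (vertical axes, each with its own range that does not start at 0) of 9 genes on each array at 0, 3, 6 and 18 h, with points numbered by replicate and bars for the mean and SD of each time. Control replicate 3 lies at 6.47 for CYP17A1, 5.59 for FMO1 and 9.87 for EPHX1, below the other controls, and all 18 h arrays of CBR3 and CYP2S1 lie above their controls.

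Of the 16 other P450 enzymes, which include those of fatty acids and foreign compounds, 0 were called at 6 h by limma and 1 in each direction at 18 h. Without adjustment, 3 had a p under 0.05 at 6 h (18.8%, against 30.7% of all genes). Of all genes, 8.35% were called lower and 7.55% higher at 18 h. Their medians were -0.10 at 6 h and 0.07 at 18 h. CYP2D14, a cattle member of the drug-oxidizing CYP2D group, read 8.66, 8.45, 8.18 and 8.82 on control arrays, 8.53 and 8.85 at 3 h, 7.94 to 8.36 at 6 h and 7.52, 7.71 and 7.66 at 18 h. The 18 h arrays lay below all others. It was down regulated 1.86-fold at 18 h (log2 -0.90 ± 0.16, adjusted p = 0.00437), and its other probe set was called lower too (log2 -0.71, adjusted p = 0.0450). The probe set used may bind transcripts of related genes, going by its suffix.

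CYP2S1, a P450 of tissues outside the liver, rose. It read 6.51, 6.96, 6.59 and 6.00 on control arrays, 6.56 and 6.60 at 3 h, 6.79, 6.58 and 6.45 at 6 h and 7.23, 7.39 and 7.86 at 18 h. The 18 h arrays lay above all others, and up to 6 h the values stayed within the control range. Up regulation at 18 h was 1.97-fold (log2 0.98 ± 0.21, adjusted p = 0.0103), with 0.38 on its other probe set (adjusted p = 0.0578).

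CYP2U1, a fatty acid hydroxylase, was not called (18 h log2 -0.52 ± 0.19, adjusted p = 0.0995), although its 18 h arrays (6.45 to 6.81) lay below the controls (7.03 to 7.36). Without either one of the 3 h arrays the adjusted p was 0.0293. CYP4A11, of the fatty acid omega-hydroxylases, was not called either (18 h log2 -0.79 ± 0.29, adjusted p = 0.103). Without control replicate 3, which read 5.45 against 6.31 to 6.62 on the other controls, it was lower at 6 h (log2 -0.87, adjusted p = 0.0320) and at 18 h (log2 -1.04, adjusted p = 0.0134). CYP1A1 and CYP1A2, the classical targets of the aryl hydrocarbon receptor, differed by 0.02 to 0.23 at 6 h and 18 h and were not called.

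Of the 3 FMO genes, FMO1 fell at both times and FMO2 at 18 h. That was 33.3% at 6 h and 66.7% at 18 h, against 7.66% and 8.35% of all genes called lower. FMO1 read 7.80, 6.74, 5.59 and 7.54 on control arrays, 4.79 and 5.72 at 3 h, 4.77, 4.78 and 4.66 at 6 h and 4.60, 5.09 and 4.97 at 18 h. The controls ran over more than 2 log2 units, while all arrays at 6 h and 18 h lay in a narrow band below the lowest control. It was down regulated 4.54-fold at 6 h (log2 -2.18 ± 0.43, adjusted p = 0.00998) and 4.10-fold at 18 h (log2 -2.03 ± 0.43, adjusted p = 0.0106). FMO1 lay among the dimmest 40% of probe sets, where RMA compresses differences.

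Leaving out control replicate 3, the FMO1 differences were -2.62 at 6 h and -2.48 at 18 h, and the 3 h value, not called with all arrays (log2 -1.66 ± 0.49, adjusted p = 0.305), was called (log2 -2.10, adjusted p = 0.0297). Without 18 h replicate 1 the adjusted p at 18 h was 0.0534. Both the 6 h and the 18 h call of FMO1 were lost with the replicate number as a block. FMO2 read 7.29, 6.67, 6.82 and 7.58 on control arrays, 6.63 and 6.71 at 3 h, 6.77, 6.53 and 6.19 at 6 h and 6.18, 6.66 and 6.12 at 18 h. The highest 18 h array came within 0.02 of the lowest control. FMO2 was lower at 18 h (log2 -0.77 ± 0.22, adjusted p = 0.0441), a call that was lost without control replicate 1 or 4, 6 h replicate 2 or 18 h replicate 1 or 3 (adjusted p = 0.0621 to 0.155), with replicates 1 and 4 averaged (adjusted p = 0.110), with median centring, with repeated quantile normalization and with only the 0 h and 18 h arrays fitted. In the buffalo annotation of RefSeq (assembly NDDB_SH_1), which lists 34 of the 66 symbols, FMO1 and FMO2 are neighbours with 0 genes between them. Other close pairs were ADH6 and ADH4, ADH1C and ADH6, ALDH3A2 and ALDH3A1, and SULT1E1 and SULT1B1. Of these genes only ADH6 and ALDH3A2 were called. FMO5 differed by -0.14 at 6 h and -0.18 at 18 h and was not called.

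The epoxide hydrolases EPHX1 and EPHX2 were called at different times. EPHX1, the microsomal enzyme that opens epoxides of foreign compounds, read 11.32, 11.60, 9.87 and 11.41 on control arrays, 10.49 and 12.37 at 3 h, 10.44, 11.71 and 10.59 at 6 h and 8.76, 8.01 and 9.53 at 18 h. Levels up to 6 h overlapped with the controls, and all 18 h arrays lay below control replicate 3, itself the lowest control by over 1 log2 unit. At 18 h it was 4.87-fold lower (log2 -2.28 ± 0.55, adjusted p = 0.0198), against -0.13 ± 0.55 at 6 h (adjusted p = 0.925). The direct difference between 18 h and 6 h was -2.15 ± 0.59 and was not called (adjusted p = 0.153).

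Without control replicate 3 the 18 h value of EPHX1 was -2.68 (adjusted p = 0.00552). The call was lost without control replicate 1, 2 or 4 or 18 h replicate 1 or 2 (adjusted p = 0.0528 to 0.0836) and with replicates 1 and 4 averaged (adjusted p = 0.0583). EPHX2, the soluble enzyme that hydrolyses epoxides of fatty acids, read 9.71, 10.09, 10.89 and 9.69 on control arrays, 9.20 and 10.30 at 3 h, 7.44, 9.39 and 8.08 at 6 h and 8.92, 9.34 and 9.95 at 18 h. The 6 h arrays lay below all controls, and at 18 h the groups overlapped again.

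EPHX2 was down regulated 3.46-fold at 6 h (log2 -1.79 ± 0.46, adjusted p = 0.0306), with -0.69 ± 0.46 at 18 h (adjusted p = 0.397) and no call between 18 h and 6 h (log2 1.10 ± 0.50, adjusted p = 0.433). Its second, dim probe set was not called (0.01 at 6 h, adjusted p = 0.972), which brought the mean of both to -0.89 (adjusted p = 0.0357). The call was lost without control replicate 1, 2 or 4 or 6 h replicate 1 or 3 (adjusted p = 0.0538 to 0.127) and with replicates 1 and 4 averaged (adjusted p = 0.0543). EPHX3 differed by 0.07 at 6 h and 0.06 at 18 h and was not called.

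Of the 4 ADH genes, ADH5 and ADH6 fell at both times, and ADH1C and ADH4, with means of 4.14 and 4.89 over all arrays, were not called. Genes called lower thus made up 50% of this family at each time, against 7.66% of all genes at 6 h and 8.35% at 18 h. ADH6, an alcohol dehydrogenase of liver and other tissues, read 8.11, 7.66, 8.08 and 8.35 on control arrays, 7.56 and 7.52 at 3 h, 7.02, 6.72 and 6.54 at 6 h and 6.52, 6.43 and 6.51 at 18 h. All treated arrays were below all controls, with the 3 h arrays between the controls and the later times. It was down regulated 2.45-fold at 6 h (log2 -1.29 ± 0.15, adjusted p = 0.00116) and 2.96-fold at 18 h (log2 -1.56 ± 0.15, adjusted p = 0.000255), against -0.51 ± 0.17 at 3 h (adjusted p = 0.370). Both calls were kept in each of the 12 fits that left out 1 array.

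ADH5, which oxidizes formaldehyde bound to glutathione and reduces nitrosoglutathione, read 11.81, 11.23, 11.09 and 11.76 on control arrays, 11.36 and 11.08 at 3 h, 10.66, 10.78 and 10.76 at 6 h and 10.56, 10.71 and 10.70 at 18 h. The arrays at 6 h and 18 h formed a tight group below all controls, and those at 3 h reached down to the lowest control. It fell 1.67-fold at 6 h (log2 -0.74 ± 0.17, adjusted p = 0.0186) and 1.76-fold at 18 h (log2 -0.81 ± 0.17, adjusted p = 0.00990). The 6 h call was lost without control replicate 1 or 4 or 6 h replicate 1 or 2 (adjusted p = 0.0516 to 0.0724) and with replicates 1 and 4 averaged (adjusted p = 0.0528). The second, dim probe set of ADH5 was not called.

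The 15 ALDH genes were the largest family after the P450 enzymes, and 2 fell at 6 h and 4 at 18 h. That was 13.3% and 26.7%, against 7.66% and 8.35% of all genes called lower. Their medians were -0.33 and -0.16. A value below 0 was found for 14 of 15 at 6 h (93.3%, against 58.5% of all genes). At 18 h it was found for 13 of 15 (86.7%, against 53.9%). ALDH1A1, which makes retinoic acid, read 14.51, 14.15, 13.85 and 14.49 on control arrays, 13.72 and 14.29 at 3 h, 13.53, 13.94 and 13.49 at 6 h and 12.85, 12.13 and 12.65 at 18 h. It was near the top of the scale in controls, and the 18 h arrays lay below every other array. At 18 h it was down regulated 3.27-fold (log2 -1.71 ± 0.22, adjusted p = 0.000933), a call kept in all 12 fits with 1 array left out, whereas at 6 h the difference was -0.60 ± 0.22 (adjusted p = 0.111, and 0.0459 without control replicate 3). The step between 6 h and 18 h (log2 -1.11 ± 0.24) was not called with all arrays (adjusted p = 0.0761) and was without either one of the 3 h arrays (adjusted p = 0.0445).

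ALDH7A1, an enzyme of lysine breakdown, read 11.28, 10.89, 10.68 and 11.37 on control arrays, 11.17 and 10.93 at 3 h, 10.23, 10.17 and 10.52 at 6 h and 10.07, 10.05 and 9.98 at 18 h. The 3 h arrays stayed within the controls, and all later arrays lay below them. It fell 1.68-fold at 6 h (log2 -0.75 ± 0.16, adjusted p = 0.0153) and 2.03-fold at 18 h (log2 -1.02 ± 0.16, adjusted p = 0.00266). All 3 of its probe sets were called lower at both times. The 6 h call was lost without 6 h replicate 1 or 2 (adjusted p = 0.0614 to 0.0707).

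ALDH3A2, which oxidizes fatty aldehydes, read 12.61, 12.51, 12.93 and 12.77 on control arrays, 12.62 and 12.47 at 3 h, 12.03, 12.40 and 12.34 at 6 h and 11.85, 12.01 and 11.94 at 18 h. The 6 h arrays lay just under the controls and the 18 h arrays below all others. The fall was 1.37-fold at 6 h (log2 -0.45 ± 0.12, adjusted p = 0.0387) and 1.71-fold at 18 h (log2 -0.77 ± 0.12, adjusted p = 0.00266). At 6 h the call was lost without control replicate 1, 3 or 4, without any one 6 h array and without 18 h replicate 1 or 3 (adjusted p = 0.0517 to 0.165), as well as with control replicates 1 and 4 averaged (adjusted p = 0.0803) with arrays centred on their medians and with the arrays of 0 h and 6 h fitted alone.

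ALDH9A1, an aminoaldehyde dehydrogenase of carnitine synthesis, read 8.67 to 9.04 on control arrays, 9.13 and 8.83 at 3 h, 8.54 to 8.61 at 6 h and 8.38 to 8.63 at 18 h. The gap between the groups was small. The 18 h value of -0.39 ± 0.12 was just past the threshold (adjusted p = 0.0473), and the call was lost without control replicate 1, 2 or 4 or any one array of 6 h or 18 h (adjusted p = 0.0636 to 0.164), with replicates 1 and 4 averaged (adjusted p = 0.123), with the trend and robust options of eBayes and with the arrays of 0 h and 18 h fitted alone. The other probe set of ALDH9A1 was not called at 18 h (log2 -0.39, adjusted p = 0.0873). ALDH2, the mitochondrial enzyme that clears acetaldehyde, read 10.77 to 10.99 on control arrays, 10.56 to 10.65 at 6 h and 10.38 to 10.82 at 18 h. It was not called at 6 h (log2 -0.28 ± 0.12, adjusted p = 0.175) or 18 h (log2 -0.25 ± 0.12, adjusted p = 0.218). The 11 ALDH genes never called ran from -0.62 to 0.30 at 6 h and from -0.38 to 0.27 at 18 h. With control replicate 3 left out, ALDH16A1 (log2 -0.89, adjusted p = 0.00367) and ALDH5A1 (log2 -0.75, adjusted p = 0.0129) were called lower at 6 h.

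Among the reductases, AKR1A1, which reduces aldehydes to alcohols, was lower at 6 h. It read 10.47, 10.27, 10.16 and 10.41 on control arrays, 10.50 and 10.02 at 3 h, 9.47, 9.79 and 9.94 at 6 h and 9.91, 10.38 and 9.96 at 18 h. The 6 h arrays lay below the controls, and 18 h replicate 2 was back within them. The fall was 1.51-fold at 6 h (log2 -0.59 ± 0.16, adjusted p = 0.0369), with -0.24 ± 0.16 at 18 h (adjusted p = 0.391). This call was lost without control replicate 1, 2 or 4 or 6 h replicate 1 or 2 (adjusted p = 0.0660 to 0.156) and with replicates 1 and 4 averaged (adjusted p = 0.0978).

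AKR1C4, named for a hydroxysteroid dehydrogenase of human liver, was not called but moved widely. It read 6.53, 6.87, 6.40 and 6.65 on control arrays, 5.55 and 6.06 at 3 h, 7.52, 7.44 and 7.22 at 6 h and 7.73, 5.92 and 8.22 at 18 h. The 3 h arrays lay below the controls and the 6 h arrays above them, and at 18 h replicates 1 and 3 were above and replicate 2 below. The differences were -0.81 ± 0.47 at 3 h, 0.78 ± 0.41 at 6 h (adjusted p = 0.273) and 0.68 ± 0.41 at 18 h (adjusted p = 0.342). Without 18 h replicate 2 it was called higher at 6 h (log2 0.78, adjusted p = 0.0200) and at 18 h (log2 1.37, adjusted p = 0.00346). Its 5 other probe sets were dim, differed by -0.17 to 0.07 at 6 h and 18 h and were not called (at 3 h they differed by -0.10 to 0.28), and genes of the AKR1C group are close copies of each other.

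AKR7A2, which reduces succinic semialdehyde, read 8.66 to 8.86 on control arrays, 9.35 and 8.38 at 3 h, 8.10 to 8.47 at 6 h and 8.21 to 8.47 at 18 h. The later arrays lay below the controls, and the 3 h arrays lay on both sides of them. It was not called at 6 h (log2 -0.51 ± 0.19, adjusted p = 0.115) or 18 h (log2 -0.45 ± 0.19, adjusted p = 0.157). Without either one of the 3 h arrays, which enter the shared estimate of the spread, it was called at both times (adjusted p = 0.0126 and 0.0192). AKR1C3 was near the bottom of the scale (mean 3.73) and was not called.

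The carbonyl reductases moved in opposite directions at 18 h. CBR3 read 7.06, 7.21, 7.48 and 7.10 on control arrays, 7.37 and 6.84 at 3 h, 7.98, 7.77 and 7.82 at 6 h and 9.05, 7.78 and 9.14 at 18 h. All arrays at 6 h and 18 h were above all controls, with 18 h replicates 1 and 3 more than 1 log2 unit above replicate 2. Up regulation at 18 h was 2.72-fold (log2 1.44 ± 0.28, adjusted p = 0.00684), against 0.64 ± 0.28 at 6 h (adjusted p = 0.173). Without 18 h replicate 2 the 18 h value was 1.88, the 6 h value was called (adjusted p = 0.0211), and so was the difference between 18 h and 6 h (log2 1.24, adjusted p = 0.0342).

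CBR4, a mitochondrial reductase of fatty acid synthesis, read 8.21, 7.92, 7.90 and 8.36 on control arrays, 8.10 and 8.01 at 3 h, 7.82 to 7.91 at 6 h and 7.54 to 7.76 at 18 h. The 18 h arrays lay below all controls. It was lower by -0.44 ± 0.12 on the log2 scale (adjusted p = 0.0334). The call was lost without control replicate 1 or 4 or any one 18 h array (adjusted p = 0.0526 to 0.137), with replicates 1 and 4 averaged (adjusted p = 0.0846) and with the arrays of 0 h and 18 h fitted alone.

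The conjugating and ester-cleaving enzymes were not called at any time: 0 of 6 SULT, 0 of 4 UGT and CES2 in limma. Without adjustment, 1 SULT gene had a p under 0.05 at 6 h against 0 h and 0 at 18 h, and neither a UGT gene nor CES2 did at these times. Of all genes, 30.7% did at 6 h and 32.4% at 18 h. The SULT genes ran from -0.58 to 0.03 at 6 h and from -0.29 to 0.03 at 18 h, and the UGT genes from -0.10 to 0.00 and from -0.15 to 0.15. SULT1E1, estrogen sulfotransferase, had a mean of 3.58 and UGT1A6, which conjugates phenols, of 4.61, near the bottom of the scale. SULT2A1 (3.91), UGT2B10 (4.58), SULT4A1 (5.13), UGT8 (5.50), CES2 (5.93) and SULT2B1 (5.98) were dim as well. A change in any of these dim genes could be missed, so their lack of calls does not show that they were unchanged. The shares of all genes are over bright and dim genes together. UGT3A2 (6.58), SULT1B1 (7.39) and SULT1A1 (11.30) were brighter. SULT1A1, a phenol sulfotransferase, read 11.05 to 11.27 on control arrays, 12.38 and 11.16 at 3 h, 11.07 to 11.41 at 6 h and 10.95 to 11.53 at 18 h. The value of 3 h replicate 1 was high alone, and the differences at 6 h and 18 h were 0.03 ± 0.24 and 0.00 ± 0.24 (adjusted p = 0.968 and 0.999). UGT8, which makes galactosylceramide, and CES2 differed by -0.05 to 0.15 at 6 h and 18 h.

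Calls were counted by level as well. Of the 66 genes, 27 lay among the dimmest 40% of probe sets, and 1 of these, FMO1, was called at 6 h and at 18 h. Of the 39 brighter genes, 9 were called at 6 h (23.1%, against 17.1% of brighter genes as a whole) and 14 at 18 h (35.9%, against 18.9%). No filter on level was applied to the tests. The probe sets of 3 genes (CYP2D14, CYP4V2 and SULT2A1) carried a suffix for probes shared with other transcripts.

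At 3 h, 0 of the 66 genes were called by limma against 0 h, while 0.0109% of all genes were called higher and 0.0218% lower. Without adjustment 7 had a p under 0.05 (10.6%, against 10.9% of all genes). All treated arrays lay below the controls for 8 genes (12.1%, against 8.72% of all genes), among them CYP19A1, ADH6 and AKR1C4. The count of calls was 2 without control replicate 3 (CYP17A1 at log2 -1.18, adjusted p = 0.0292, and FMO1 as above). Leaving out a 3 h array left 1 array at 3 h. CYP19A1 then differed by -2.20 without 3 h replicate 1, and CYP39A1 by -2.00 without 3 h replicate 3. With 2 arrays that differed widely, changes at 3 h had the least precision.

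Between treated times, 5 genes were called at 18 h against 3 h, with 1.49% of all genes called lower and 2.29% higher. ADH6 (log2 -1.05 ± 0.18, adjusted p = 0.0143), ALDH1A1 (log2 -1.46 ± 0.27, adjusted p = 0.0165), ALDH7A1 (log2 -1.02 ± 0.20, adjusted p = 0.0210) and CYP2D14 (log2 -1.06 ± 0.19, adjusted p = 0.0157) were lower, and CBR3 was higher (log2 1.55 ± 0.33, adjusted p = 0.0339). The 3 h and 18 h arrays did not overlap for any of the 5. All 18 h arrays lay below the 3 h arrays for 18.2% of the 66 genes and above them for 7.58%. Over all genes these shares were 16.2% and 15.2%. Leaving out 18 h replicate 1 gave 2 calls, leaving out 18 h replicate 3 gave 3, and 2 were made when the arrays of these times alone were fitted. ADH6 was called in all 12 fits with 1 array left out. CBR3 was lost without control replicate 1, 2 or 4, 3 h replicate 3, 6 h replicate 2 or 3 or 18 h replicate 1 or 3 (adjusted p = 0.0515 to 0.118), ALDH7A1 without 3 h replicate 1 or any one 18 h array (adjusted p = 0.0514 to 0.0744), CYP2D14 without 3 h replicate 3 or 18 h replicate 1 (adjusted p = 0.0512 to 0.0620) and ALDH1A1 without 3 h replicate 3 (adjusted p = 0.0576).

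No gene of the 66 was called by limma at 6 h against 3 h or at 18 h against 6 h. Without adjustment, 16 had a p under 0.05 at 6 h against 3 h (24.2%, against 15.2% of all genes). At 18 h against 6 h 11 did (16.7%, against 13.8%). Of all genes, 0.153% were called higher and 0.0765% lower at 6 h against 3 h, and 0.371% higher and 0.273% lower at 18 h against 6 h. Hence a gene called at 6 h and not at 18 h, or the reverse, was not shown to differ between these times. Leaving out 3 h replicate 3 left 1 array at 3 h. The differences at 6 h against 3 h were then -1.09 for AKR7A2, -0.56 for CYP4V2, -1.15 for SULT1A1 and 1.27 for CYP39A1. The other probe sets of CYP4V2 differed by 0.15 and 0.31 with all arrays. Without 18 h replicate 2 AKR1C4 was called higher at 6 h against 3 h (log2 1.59, adjusted p = 0.0254).

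The partners of these enzymes were taken from lists of genes outside the 66. For the counts of each list, 7.66% of all genes were called lower and 6.55% higher at 6 h. At 18 h these shares were 8.35% and 7.55%. Of 7 electron donors measured, 0 were called at 6 h and 2 fell at 18 h. These were CYB5R3, which reduces cytochrome b5 (log2 -1.19 ± 0.25, adjusted p = 0.0103), and FDX1, the ferredoxin of mitochondrial P450 enzymes (log2 -0.66 ± 0.12, adjusted p = 0.00456). POR, the reductase that feeds the microsomal P450 enzymes, differed by -0.17 at 6 h and -0.27 at 18 h and was not called (adjusted p = 0.295 and 0.0934).

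Of 16 transcriptional regulators measured, 1 rose and 4 fell at 6 h, and 5 fell at 18 h. That was 31.2% called at each time, against 14.2% and 15.9% of all genes. Among them NR5A1 was also counted with the 8 luteal markers. NR5A1, a nuclear receptor that drives steroidogenic P450 genes, fell at both times (log2 -1.48 ± 0.26, adjusted p = 0.00632 and log2 -1.21 ± 0.26, adjusted p = 0.0112), and so did its relative NR5A2 (log2 -1.15 ± 0.28, adjusted p = 0.0247 and log2 -1.98 ± 0.28, adjusted p = 0.00145). The oxysterol receptor NR1H3 (log2 -0.75 at both times) and KEAP1, which holds back the antioxidant factor NFE2L2 (log2 -0.46 and -0.41), also fell at both times. MAFG rose at 6 h (log2 0.79, adjusted p = 0.0490) and CEBPB fell at 18 h (log2 -0.93, adjusted p = 0.0480). NFE2L2 itself and AHR, the aryl hydrocarbon receptor, were not called (AHR log2 0.74 ± 0.31 and 0.72 ± 0.31, adjusted p = 0.160 and 0.166).

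Among 21 other genes of conjugation and cofactor supply, 2 rose and 2 fell at 6 h, and 2 rose and 6 fell at 18 h. That was 19% and 38.1% called, against 14.2% and 15.9% of all genes. UGDH, which makes the glucuronic acid donor for UGT enzymes, rose at both times (log2 0.68 ± 0.13, adjusted p = 0.00794 and log2 0.64 ± 0.13, adjusted p = 0.00801), as did MAOB, a monoamine oxidase (log2 1.16 and 1.27). Sulfite oxidase, SUOX, had the lowest adjusted p of the list and fell at both times (log2 -0.67 ± 0.12, adjusted p = 0.00780 and log2 -1.48 ± 0.12, adjusted p = 9.91e-05). MGST2 fell at both times, and the glutathione transferases GSTA4 (log2 -1.47) and MGST3 (log2 -0.81), the quinone reductase NQO1 (log2 -0.78) and the aldehyde oxidase AOX1 (log2 -0.85) at 18 h. Of 4 efflux pumps measured, ABCG2 fell at both times (log2 -0.77 and -0.55).

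ALDH1A1 was set beside 9 measured genes of retinoid handling, none of which was called lower. DHRS3, which turns retinaldehyde back to retinol, rose at 6 h (log2 1.03 ± 0.29, adjusted p = 0.0428) and was 0.97 ± 0.29 at 18 h (adjusted p = 0.0519). CRABP2, a carrier of retinoic acid to its receptor, rose at 18 h (log2 2.24 ± 0.50, adjusted p = 0.0142). CRABP1 was -1.73 ± 0.56 at 18 h and was not called (adjusted p = 0.0685).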

How the data were processed

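RNA of whole CL from 12 buffalo cows was hybridised to GeneChip Bovine Genome Arrays (Affymetrix). The authors deposited RMA values in log2 units, background-corrected, normalized between arrays and summarised per probe set. Software version and chip definition were not given in the sources used here. Of 24128 probe sets, 112 controls were left out and 24016 tested. The platform annotation gave 1 symbol for 13292, several for 86 and none for 10638. The 66 genes have 98 probe sets.

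With limma 3.58.1 in R 4.3.3, all 12 arrays were fitted on 4 group means (lmFit, contrasts.fit, eBayes, 8 residual degrees of freedom). Tests were two-sided, and p-values were adjusted by Benjamini-Hochberg over 24016 probe sets within each of 6 comparisons. An adjusted p under 0.05 was a call. Shares of all genes are over 9155 genes with the same calls. Values are differences ± SE of the fit, or group means ± SD. The steps were tested on simulated data. The number of arrays limits the precision. The labels count each array as an animal.

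The members, lists and rule for named genes were chosen with earlier results of these data known. By that rule every called member was named, with fixed genes (14 were not called: AKR1C3, AKR1C4, AKR7A2, ALDH2, CES2, CYP11B1, CYP20A1, CYP21A2, CYP2U1, FMO5, SULT1A1, SULT1E1, UGT1A6 and UGT8). Other members (such as CYP39A1 and CYP4A11) were named after their values were seen. CYP20A1 differed by -0.15 at 6 h and -0.04 at 18 h. The markers of hepatocytes, 5 of 5 measured, gave 0 calls at 6 h and 18 h. Alternatives were leaving out the dimmest 40% of probe sets, adjustment over genes, the mean of a gene's probe sets, median centring, quantile normalization, eBayes with trend and robust, the replicate number as a block, control replicates 1 and 4 averaged, 2 groups fitted alone, and 1 array left out. No promoter or protein sequences were used here.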

Additional observations from a re-analysis of the deposited data

Results flagged for a closer look

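The 33 named genes were searched for single control arrays far from the others of their group, the only group large enough, and chance alone picks about 1 in 20. In CYP21A2, control replicate 2 read 7.53 against 6.73 to 6.79 on the other controls, and its gap was 0.917 of the control range. In CYP51A1, control replicate 2 read 12.56 against 12.83 to 12.88, a gap of 0.859 of the range. In EPHX1, control replicate 3 read 9.87 against 11.32 to 11.60, a gap of 0.840 of the range. Control replicate 3 also stood apart over all probe sets.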

How the results depend on the processing

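No result reversed. The count of genes called at 6 h against 0 h was 10 and fell to 4 with control replicates 1 and 4 averaged. It fell to 3 with the replicate number as a block (ADH6, CYP19A1 and EPHX2). It ran from 3 to 15 with 1 array left out. Apart from FMO1, the losses listed by gene above leave out the block. At 18 h against 0 h the count was 15, with 9 to 19 with 1 array left out. Under the block it was 9, with ALDH9A1, CBR4, CYP51A1, EPHX1, FMO1 and FMO2 lost. At 18 h against 3 h it was 5, with 1 under the block, 2 when only these arrays were fitted and 2 to 7 with 1 array left out. With 1 array left out it ran from 0 to 2 at 3 h against 0 h, from 0 to 4 at 6 h against 3 h and from 0 to 1 at 18 h against 6 h. The other alternatives kept each count within 1.5 times of its value, and the cause of the losses was not tested. Deviations of same-numbered arrays from their group means correlated at -0.26 to 0.19. Arrays of different numbers were not compared in this way, so it cannot be told whether the numbers pair the animals. Where a 3 h array was left out, the lone array was assumed to vary like the other groups. Dim probe sets and cattle probes on buffalo RNA limit what could be called, and the part of changed cell content was not tested.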
